A study of Mus musculus with 6 samples.

Results

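The subject was the group of 10 cytokine genes that T helper type 2 and type 17 cells are known for, Il4, Il5, Il13, Il9, Il10, Il24, Il17a, Il17f, Il21 and Il22, in the transcriptome of activated mouse T cells. Members were the rows whose Ensembl identifier, with the version removed, belonged to 1 of these symbols, which gave 10 of the 52550 genes and 21 of the 131146 transcripts in the deposited tables. RNA was taken from wild-type splenic CD3+ T cells that had been stimulated for 24 h with anti-CD3/CD28 activators. The 3 samples of TCR alone received the activators only. The 3 samples of TCR+DMGV received, per the labels, the small molecule DMGV at 100 ng/ml as well. The study's text instead calls the compound of this experiment LNY1, its name for an inhibitory factor purified from fibroblast medium and taken to be ADMA and SDMA. DMGV, dimethylguanidino valeric acid, is a metabolite that the enzyme AGXT2 makes from these methylated arginines. The labels give no strain, age or sex for these samples. The study's methods name mice of both sexes aged 6 to 8 weeks for its animal work in general, with C57BL among several strains, and do not tie a strain to this experiment. No unstimulated sample was analysed here, so every level is one after stimulation.

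IL-4, IL-5 and IL-13 are the signature cytokines of type 2 cells and act on B cells, eosinophils and epithelium, while IL-9 acts on mast cells and IL-10 restrains inflammation. IL-17A and IL-17F call neutrophils to barrier tissues, IL-22 acts on epithelium, and IL-21 helps B cells and CD8+ T cells. IL-24 belongs with IL-10 and IL-22 to the IL-10 family. After the T cell receptor is engaged, calcium brings NFAT into the nucleus, where it binds cytokine promoters together with AP-1, and lineage factors such as GATA3 or RORγt decide which of these loci can respond. Splenic T cells taken as a whole hold naive cells together with memory cells, and a naive T cell makes little of these cytokines on the first day.

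Il4, Il13 and Il5 lie in 1 cluster on chromosome 11, and the bases before their start sites are shown beside those of Il21, the most abundant gene of the type 17 group, because these are the regions through which the stimulus given to all 6 samples is known to act. Each run is the 250 bases before a RefSeq start (GRCm38.p6), written 5′ to 3′ on the strand of the gene, with every GGAAA, the core that NFAT binds, or its complement TTTCC in capitals.
Il4, chr11:53618666-53618915, reverse strand: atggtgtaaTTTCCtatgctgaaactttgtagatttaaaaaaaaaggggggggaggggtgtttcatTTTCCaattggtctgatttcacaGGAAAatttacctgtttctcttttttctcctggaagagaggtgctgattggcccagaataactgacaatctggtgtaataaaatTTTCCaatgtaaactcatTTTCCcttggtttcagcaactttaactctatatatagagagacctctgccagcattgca
Il13, chr11:53634703-53634952, reverse strand: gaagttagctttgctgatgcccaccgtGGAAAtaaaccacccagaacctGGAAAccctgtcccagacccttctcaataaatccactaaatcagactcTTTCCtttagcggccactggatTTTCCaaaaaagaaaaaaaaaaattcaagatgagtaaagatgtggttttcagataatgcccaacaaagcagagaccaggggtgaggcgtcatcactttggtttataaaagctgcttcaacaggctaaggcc
Il5, chr11:53720544-53720793, forward strand: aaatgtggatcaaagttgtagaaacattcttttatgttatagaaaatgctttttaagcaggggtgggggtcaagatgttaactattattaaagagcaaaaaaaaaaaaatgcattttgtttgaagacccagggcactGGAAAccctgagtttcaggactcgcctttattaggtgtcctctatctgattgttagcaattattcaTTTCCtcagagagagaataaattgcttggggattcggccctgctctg
Il21, chr3:37232637-37232886, reverse strand: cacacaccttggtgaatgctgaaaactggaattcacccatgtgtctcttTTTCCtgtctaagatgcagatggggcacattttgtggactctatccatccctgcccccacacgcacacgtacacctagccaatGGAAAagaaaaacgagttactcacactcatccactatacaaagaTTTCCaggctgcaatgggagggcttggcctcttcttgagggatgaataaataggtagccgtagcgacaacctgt
The Il4 window, that of the upstream of 2 RefSeq starts, held 5 GGAAA cores on either strand, the Il13 window 4, the Il21 window 3 and the Il5 window 2. The window of the other Il4 start held 0, as did that of Il17a, and those of Il9, Il17f and Il22 held 3, 2 and 1. Such a core is common: 55.6% of 32841 windows of this length over all genes held at least 1. The AP-1 motif TGANTCA, which 6.75% of the windows held, was in none of these 4 windows. It occurred once in that of Il9, 140 bases before the start, and once in that of Il17a, 244 bases before it. GATAA, in 22.6% of windows, occurred once each before Il13 and Il22. These matches describe letters only. Windows were available for 8 of the 10 genes, not for Il10 and Il24.

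Library depth was similar in all samples. Summed gene counts ran from 37758725 (TCR alone 1) to 43718867 (TCR+DMGV 2), and 14786 genes passed the filter on low counts, all 10 cytokines among them. Low counts of genes with a single annotated transcript were unevenly spread: 1 and 2 were the most frequent values, and at 4, 8, 12, 16, 20 and 24 values were 1.37 to 1.84 times as frequent as at the counts next to them. How many sequenced fragments a deposited count stands for is therefore not known, and no counting interval is given. On the first principal component, which held 32.2% of the variance, TCR alone 3 (score 42.1) and TCR+DMGV 1 (score 42.9) stood apart from the other 4 samples (scores from -34.9 to -10.5). In the same 2 libraries, the deviation of a gene from its mean correlated positively with its GC content over 9037 genes (r = 0.55 and 0.38, against -0.44 to -0.10 in the other 4), a description across genes, which are not independent.

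Per the study's methods, the CD3+ T cells were isolated from spleen magnetically and their purity was checked by flow cytometry, a step that removes most other cells. Markers of the labelled cell type were abundant. Trbc2, the constant region of the T cell receptor beta chain, was the leading gene of the T cell list at 575 to 695 FPKM (fragments per kilobase of gene, scaled to sequencing depth), and all 13 genes of this list were detected. Of the other cells that could make these cytokines, mast cells and basophils had 4 of 11 markers at 0 in every sample (Fcer1a, Prss34, Tpsb2 and Cd200r3), with Hdc as the most abundant at 0.23 to 0.39 FPKM and a summed level of 4.79, 4.66 and 3.77 CPM in TCR alone and 4.27, 3.04 and 4.32 CPM in TCR+DMGV (CPM, counts scaled to library size after TMM). Eosinophil markers reached at most 8 counts, with Prg2 and Ear6 at 0. All 8 neutrophil markers were listed at 0. The γδ and innate-like T cell list, which holds known early makers of IL-17, had all 8 matched genes detected and summed to 25.0, 29.9 and 27.8 CPM in TCR alone and 28.2, 29.8 and 28.7 CPM in TCR+DMGV. Trdc, the constant region of the T cell receptor delta chain and the leading gene of that list, had 3.89 to 5.10 FPKM. Of its 7 genes tested, 3 had positive and 4 had negative log2 fold changes. Blk (-1.52) and Zbtb16 (-0.50) did not overlap in CPM between the groups, both lower in TCR+DMGV, against 8.86% of all genes.

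Expression of the cytokines was low but measurable in every sample. By mean gene FPKM over the 6 samples, Il13 came first at 10.9 ± 1.71 (SD, n = 6), followed by Il21 (2.65 ± 0.503), Il10 (2.62 ± 0.612), Il4 (2.44 ± 0.537), Il24 (1.72 ± 0.879), Il9 (1.41 ± 0.715), Il5 (1.12 ± 0.174), Il17a (0.950 ± 0.303), Il22 (0.616 ± 0.352) and Il17f (0.303 ± 0.154). Il13 was above Il21 in 6 of 6 samples, by 4.12 times on average, and its lowest FPKM of 9.27 exceeded the highest value of any other member. No other 2 neighbours in this gene order were parted in every sample, and their differences in mean FPKM (0.031 to 0.722) were each smaller than the larger SD of the pair. The order also differed between the groups. Il24 lay above Il9 in 3 of 3 TCR alone samples (means of 2.43 and 1.00 FPKM) and below it in 3 of 3 TCR+DMGV samples (1.01 and 1.82 FPKM). Il10 had a higher mean than Il21 in TCR alone (3.15 and 2.69 FPKM) and a lower one in TCR+DMGV (2.09 and 2.60 FPKM). Within TCR alone, Il21 was above Il10 in TCR alone 2 (3.34 and 3.29 FPKM). Il21 was furthest below Il10 in TCR alone 3 (1.85 and 3.11 FPKM), a library that stood apart. For genes with several annotated transcripts, the order depended on which FPKM was read. By the FPKM of the most abundant transcript of each gene, a choice made after seeing the data, Il4 (4.63 ± 1.26, SD, n = 6) and Il21 (4.24 ± 0.844) came next after Il13, which led by 2.36 times and again in 6 of 6 samples, and Il21 had a higher mean than Il10 in TCR alone too (4.35 and 3.15 FPKM). Il10, next in that order, lay above Il24 in 6 of 6 samples. Set among the 14786 genes tested, whose median was 4.23 FPKM, Il13 was above 71.0% and Il17f above 13.0% of them.

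**Figure D1:**
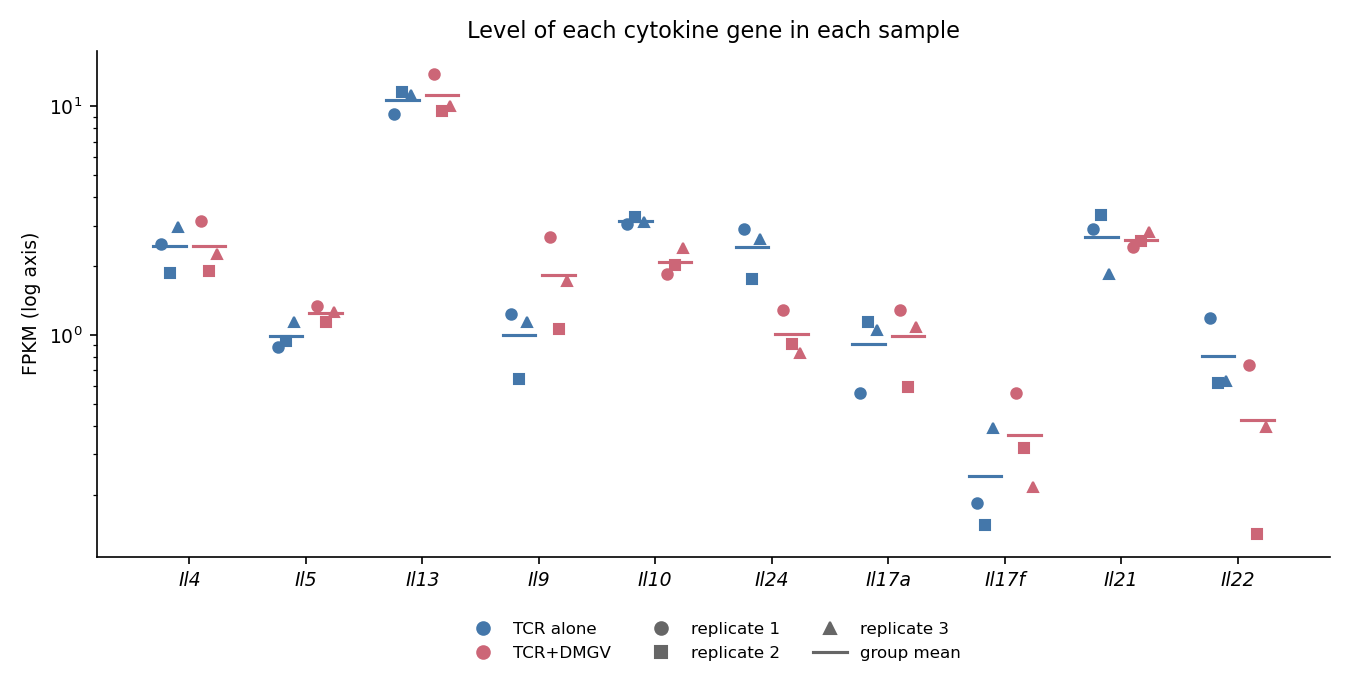
FPKM on a log axis of the 10 cytokine genes in TCR alone (blue) and TCR+DMGV (red), with a symbol for each replicate and a line at the group mean. Il13 is highest in all 6 samples, and the groups lie apart for Il10 and Il24 only.

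Whether DMGV altered these cytokines was asked by comparing TCR+DMGV with TCR alone, gene by gene. Taking 0.05 as the limit of the adjusted p, none of the 10 passed it with edgeR, DESeq2 or limma, against 0.0135% of all genes tested in edgeR (2 of 14786). At an unadjusted p of 0.05, 2 of the 10 were called, Il10 and Il24, both with lower values in TCR+DMGV, against 3.19% of all genes. For 3 of the 10, Il5, Il10 and Il24, the CPM ranges of both groups were apart, against 8.86% of all genes. The median log2 fold change of the 10 was 0.05, that of all genes 0.00, and 6 of the 10 had a positive sign. In whole-culture RNA, fewer cells making a cytokine and less RNA per cell cannot be told apart.

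Among the genes of the IL-10 family, Il24 had the smallest p of the 10. Il24 (ENSMUSG00000026420.16, chromosome 1 from 130882074 to 130887454, reverse strand) had counts of 171, 115 and 167 in TCR alone and 89, 63 and 55 in TCR+DMGV, which is 4.50, 2.82 and 4.03 CPM against 2.00, 1.46 and 1.39 CPM. Every TCR+DMGV sample lay below every TCR alone sample, with means of 3.78 ± 0.869 and 1.62 ± 0.334 CPM (SD, n = 3 each). The log2 fold change of TCR+DMGV against TCR alone was -1.22 (standard error 0.26, 95% interval -1.85 to -0.60, unadjusted p = 0.0022, adjusted p = 0.999 by the edgeR quasi-likelihood test). Over the 19 alternative settings it stayed between -1.41 and -0.76, with unadjusted p from 0.00032 to 0.010 and adjusted p from 0.231 (DESeq2) to 0.99999. The exact two-sided permutation test on the log2 CPM of these 3 and 3 samples gave p = 0.1, the smallest that 20 assignments allow.

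Of the 4 annotated Il24 transcripts, 2 passed the filter and 1 of them had groups that were apart. Il24-201 (ENSMUST00000121040.7, 6 exons, 1159 bases), a protein-coding form, had counts of 147, 106 and 155 in TCR alone and 58, 49 and 25 in TCR+DMGV. Its log2 fold change was -1.73 (standard error 0.41, unadjusted p = 0.0065, adjusted p = 0.948 by the edgeR quasi-likelihood test over 38401 transcripts). Il24-202, protein-coding as well with 5 exons and 1182 bases, had 24, 9 and 11 counts against 21, 14 and 16, and its groups overlapped (log2 fold change 0.11, standard error 0.54, unadjusted p = 0.846, same test). Il24-204, annotated as a target of nonsense-mediated decay, had 0 counts in all TCR alone samples and 10, 0 and 14 in TCR+DMGV, and Il24-203 had 1 count in a single sample.

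As a share of the counts of the gene, Il24-201 made up 86.0%, 92.2% and 92.8% in TCR alone and 65.2%, 77.8% and 45.5% in TCR+DMGV, and Il24-202 made up 14.04%, 7.83% and 6.59% against 23.6%, 22.2% and 29.1%. Neither share overlapped between the groups, and for each the exact permutation test gave p = 0.1, the smallest possible here. Both shares are parts of the same total, so they are not independent. How often such shares lie apart over all genes was not counted. The division of short reads among transcripts that share exons is an estimate. Over all transcripts, 0 of 38401 passed the adjusted threshold (0%) and 1235 had an unadjusted p under 0.05 (3.22%), which for the 12 transcripts of the members that were tested was Il24-201 alone. In CPM 3 of these 12 did not overlap between the groups, Il24-201 and the single transcripts of Il10 and Il5, against 9.25% of all transcripts.

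**Figure D2:**
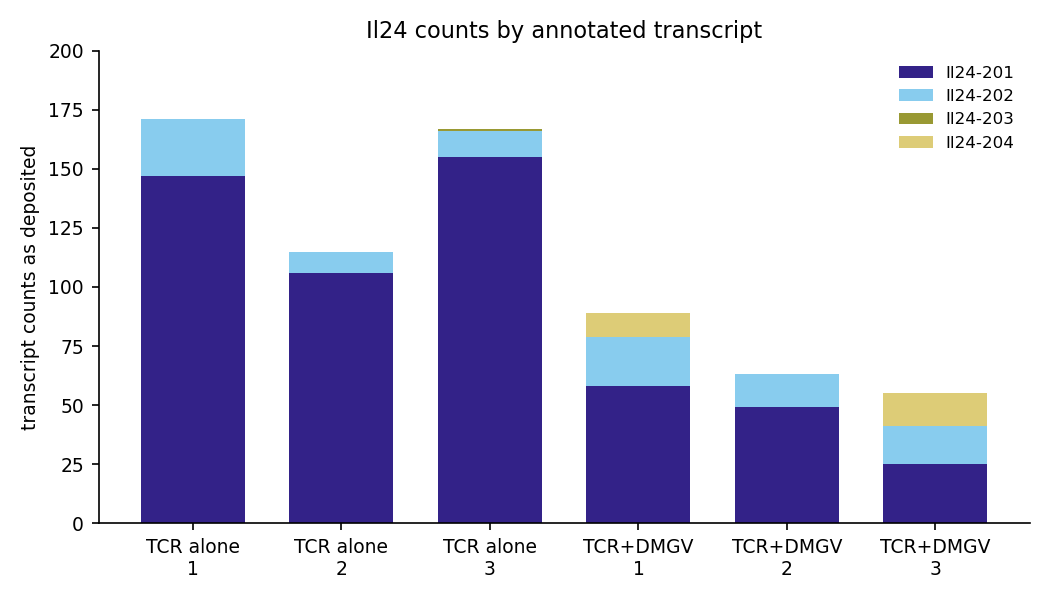
Deposited counts of the 4 annotated Il24 transcripts, stacked, in each of the 6 samples. The height of the bar is the gene count, 115 to 171 in TCR alone and 55 to 89 in TCR+DMGV, Il24-201 (dark) has 106 to 155 counts in TCR alone and 25 to 58 in TCR+DMGV, and Il24-202 (light blue) has 9 to 24 counts throughout.

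Il10 also lies on chromosome 1, 132 kb from Il24 (ENSMUSG00000016529.5, 131019845 to 131024974, forward strand, 1 annotated transcript). Its counts were 169, 202 and 185 in TCR alone and 119, 131 and 143 in TCR+DMGV, or 4.45, 4.95 and 4.47 CPM against 2.67, 3.04 and 3.61 CPM. The 3 TCR+DMGV values all lay below the 3 of TCR alone, and the spread within each group was small (4.62 ± 0.283 and 3.11 ± 0.471 CPM, SD, n = 3 each). This came to a log2 fold change of -0.57 (standard error 0.18, 95% interval -1.002 to -0.14, unadjusted p = 0.016, adjusted p = 0.999 by the edgeR quasi-likelihood test). Over its alternatives the value stayed between -0.69 and -0.43, with unadjusted p from 0.0049 to 0.073 and adjusted p from 0.649 to 0.99999. The p exceeded 0.05 in 2 of the 19, both of which leave out TCR+DMGV 1, the sample with the lowest Il10. The exact permutation test on its log2 CPM again gave its smallest p of 0.1.

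Il22, the third of this family, had the widest interval of the 10. Il22 (ENSMUSG00000074695.3, chromosome 10 from 118204942 to 118210047, forward strand) had counts of 56, 32 and 32 in TCR alone and 41, 8 and 20 in TCR+DMGV, which is 1.47, 0.784 and 0.773 CPM against 0.921, 0.186 and 0.505 CPM. TCR+DMGV 2 was lowest, and TCR+DMGV 1 lay above 2 of the 3 TCR alone samples, so that the groups overlapped. Its log2 fold change of -0.90 had a 95% interval of -2.32 to 0.52 (unadjusted p = 0.177 by the edgeR quasi-likelihood test). The value rested on single libraries: it was -0.50 without TCR+DMGV 2, -0.54 without TCR alone 1 and -1.55 (unadjusted p = 0.046, same edgeR test) without TCR+DMGV 1. With both libraries that stood apart left out it was -1.70 (unadjusted p = 0.048, same edgeR test). Iltifb, its near-identical copy, was listed at 0, and how the counting divided reads between both copies was not given in the sources used here.

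Most relatives of these genes had no counts. Of 12 genes listed as family relatives, 8 were at 0 in every sample (Il19, Il20, Iltifb, Il17b, Il25, Il33, Tslp and Il7), among them Il19 and Il20, which lie between Il24 and Il10. Il17d, an IL-17 homologue, was the only one tested, with counts of 37, 37 and 69 in TCR alone and 26, 30 and 40 in TCR+DMGV (log2 fold change -0.63, standard error 0.39, unadjusted p = 0.149). Il15 had 0 to 12 counts, and Il17c and Il31 had 4 counts in 1 sample each. Next to Il24, 1.28 kb away, Fcmr, the receptor for the constant part of IgM, had 0, 5 and 5 counts against 20, 5 and 19 and was not tested. Mapkapk2, the neighbour of Il10 on the other side and a kinase of the p38 pathway, had a log2 fold change of -0.02 (standard error 0.10).

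Il4, Il13 and Il5 showed levels that overlapped or nearly met between groups. Il4 (ENSMUSG00000000869.12, chromosome 11 from 53602982 to 53618669, reverse strand) had counts of 131, 110 and 166 in TCR alone and 193, 117 and 128 in TCR+DMGV, or 3.45, 2.70 and 4.01 CPM against 4.34, 2.72 and 3.23 CPM. The groups overlapped, with a log2 fold change of 0.02 (95% interval -0.57 to 0.60), which was -0.19 without TCR+DMGV 1 and 0.17 without TCR alone 3. Of its 4 transcripts, the coding Il4-201 held 80.3% to 96.4% of the counts in each sample, with a log2 fold change of -0.01 (standard error 0.37).

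Il13 (ENSMUSG00000020383.1, chromosome 11 from 53631324 to 53634702, reverse strand) lies 12.7 kb from Il4. It had counts of 473, 648 and 614 in TCR alone and 821, 565 and 553 in TCR+DMGV, which is 12.5, 15.9 and 14.8 CPM against 18.4, 13.1 and 13.95 CPM. TCR+DMGV 1 was the highest sample and TCR alone 1 the lowest, and of the other 4, both TCR alone samples lay above both TCR+DMGV samples. The log2 fold change was 0.08 (standard error 0.17) with a 95% interval of -0.32 to 0.47, the narrowest of the 10. Its sign turned without TCR+DMGV 1 (-0.09) and without TCR alone 1 (-0.03), and it was 0.17 without TCR+DMGV 2.

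Il5, 86.1 kb beyond Il13 (ENSMUSG00000036117.2, chromosome 11 from 53720794 to 53725106, forward strand), had counts of 58, 68 and 80 in TCR alone and 101, 86 and 88 in TCR+DMGV. In CPM these were 1.53, 1.67 and 1.93 against 2.27, 1.997 and 2.22, so that every TCR+DMGV value lay above every TCR alone value, whereas in FPKM TCR alone 3 (1.141) lay above TCR+DMGV 2 (1.137). A log2 fold change of 0.34 had a standard error of 0.22 and a 95% interval of -0.17 to 0.85 (unadjusted p = 0.163 by the edgeR quasi-likelihood test). Gm12214, an antisense gene that overlaps Il5, had 0 to 30 counts. Whether the counting used strand was not given in the sources used here, so a part of its reads could belong to Il5 or the reverse.

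Genes beside this cluster had small negative log2 fold changes. Rad50, a DNA repair gene that lies between Il13 and Il5, had 22.2 FPKM in TCR alone and 20.5 in TCR+DMGV (log2 fold change -0.10, standard error 0.08), Irf1, a transcription factor induced by interferon, had 28.8 and 26.6 (-0.10, standard error 0.11), and Kif3a, a kinesin motor subunit, had 2.21 and 1.96 (-0.15, standard error 0.13). The CPM of Kif3a did not overlap between the groups, and those of Rad50 and Irf1 did. All 3 neighbours had log2 fold changes of the other sign from those of Il4, Il13 and Il5, and no difference between them was tested.

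Il9 (ENSMUSG00000021538.3, chromosome 13 from 56479277 to 56482246, reverse strand) had the largest positive log2 fold change of the 10, with a wide error. Its counts were 28, 17 and 28 in TCR alone and 71, 28 and 42 in TCR+DMGV, or 0.737, 0.417 and 0.676 CPM against 1.60, 0.650 and 1.06 CPM. TCR+DMGV 2 fell among the TCR alone samples, and TCR+DMGV 1 stood above all others. The log2 fold change was 0.85 (standard error 0.45, 95% interval -0.20 to 1.90, unadjusted p = 0.097, adjusted p = 0.999 by the edgeR quasi-likelihood test), and it was 0.48 without TCR+DMGV 1 and 1.12 (unadjusted p = 0.041, same test) without TCR+DMGV 2. Of its neighbours, Slc25a48 was listed at 0 and Fbxl21 had at most 5 counts.

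Il17a and Il17f lie 42.7 kb apart on chromosome 1. Il17a (ENSMUSG00000025929.4, 20730905 to 20734496, forward strand) had counts of 28, 63 and 56 in TCR alone and 74, 34 and 58 in TCR+DMGV, which is 0.737, 1.54 and 1.35 CPM against 1.66, 0.790 and 1.46 CPM. The groups overlapped throughout, with a log2 fold change of 0.11 (95% interval -0.86 to 1.07). It was -0.17 without TCR alone 1, -0.11 without TCR+DMGV 1 and 0.37 without TCR+DMGV 2.

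Il17f (ENSMUSG00000041872.9, 20777146 to 20790617, reverse strand) had counts of 16, 14 and 37 in TCR alone and 56, 33 and 20 in TCR+DMGV, or 0.421, 0.343 and 0.894 CPM against 1.26, 0.766 and 0.505 CPM. TCR alone 3 lay above 2 of the 3 TCR+DMGV samples. A log2 fold change of 0.61 had a 95% interval of -0.65 to 1.87, and it was 0.19 without TCR+DMGV 1 and 1.15 without TCR alone 3, the 2 libraries that stood apart. Pkhd1, on the far side of Il17a, was listed at 0, and Mcm3, a replication factor next to Il17f, had 220 and 236 FPKM (log2 fold change 0.12, standard error 0.08).

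Il21 (ENSMUSG00000027718.8, chromosome 3 from 37222759 to 37232636, reverse strand) had counts of 646, 822 and 443 in TCR alone and 626, 664 and 676 in TCR+DMGV, which is 17.01, 20.1 and 10.7 CPM against 14.1, 15.4 and 17.1 CPM. Both the highest and the lowest sample belonged to TCR alone, and the TCR+DMGV values lay between them. The log2 fold change was -0.04 (standard error 0.23, 95% interval -0.57 to 0.49), and it moved to -0.25 without TCR alone 3 and to 0.16 without TCR alone 2. Il21-201 held 90.5% to 95.3% of the counts of the gene in each sample. The antisense gene Gm12534, which overlaps Il21, had 9 to 26 counts.

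The low sample of Il21, TCR alone 3, was also the lowest for its neighbour Il2, the growth factor of T cells, which had 16.2, 21.4 and 8.96 FPKM in TCR alone and 13.8, 18.5 and 19.5 in TCR+DMGV (log2 fold change 0.16, standard error 0.32). Cetn4, a centrin gene on the other side, had 1.66, 2.23 and 0.407 FPKM against 0.321, 1.74 and 2.21, lowest in TCR alone 3 and TCR+DMGV 1, the libraries that stood apart. The 3 genes whose log2 CPM followed that of Il21 most closely over the 6 samples were Paip2b, Hnrnpr and Zdhhc2 (r = 0.994, 0.993 and 0.991), and 377 of all genes tested reached an r above 0.9. For Il13 they were Actr10, Unc13b and Rgs14 (r = 0.991, 0.989 and 0.987), with 88 genes above 0.9. With 6 points that share library, depth and GC trend, these values describe these samples only.

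**Figure D3:**
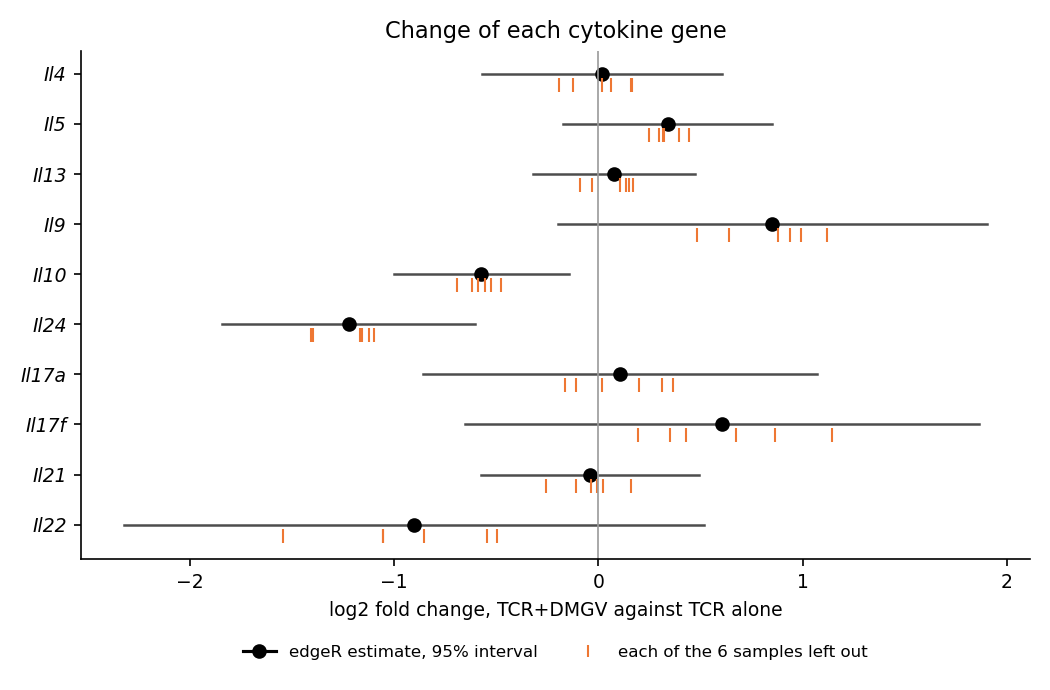
The log2 fold change of TCR+DMGV against TCR alone for each cytokine gene (black point) with its 95% interval (line), and below it the values with each of the 6 samples left out (orange marks). The intervals of Il10 and Il24 leave out 0 before any adjustment for the 14786 genes tested, and those of the other 8 hold 0.

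The extremes were unevenly spread over the libraries. TCR+DMGV 1 had the highest CPM of 6 of the 10 cytokines (Il4, Il5, Il13, Il9, Il17a and Il17f) and the lowest of Il10. The share of all genes with their highest CPM in this library, which stood apart, was not counted. TCR alone 1 and TCR alone 2 each had the highest CPM of 2 cytokines and the lowest of 3. Without both libraries that stood apart, the log2 fold change was -1.36 for Il24, -0.50 for Il10, 0.40 for Il5, 0.57 for Il9, 0.73 for Il17f and -1.70 for Il22, and it was -0.06, -0.04, -0.02 and -0.19 for Il13, Il4, Il17a and Il21. The part of the GC trend in these values was measured only through an offset for it, with which Il24 came to -1.24, Il10 to -0.56 and Il21 to 0.07.

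The receptors that bind these cytokines ranged from abundant to not detected. The shared γ chain Il2rg (197 and 211 FPKM in TCR alone and TCR+DMGV), the IL-4 receptor chain Il4ra (49.7 and 44.6 FPKM) and Il21r (43.4 and 41.5 FPKM) were the most abundant of the 18 genes. Il13ra2, Il22ra1, Il22ra2 and Il20ra were at 0 in every sample, and 9 of the 18 were tested. Of these 9, 0 were past the threshold in edgeR, DESeq2 or limma, 0 had an unadjusted p under 0.05 in edgeR, against 3.19% of all genes, and 0 had groups that did not overlap in CPM, against 8.86%. The smallest p belonged to Il20rb, a chain of the receptors for IL-19, IL-20 and IL-24, which had counts of 123, 171 and 169 in TCR alone and 156, 103 and 94 in TCR+DMGV (log2 fold change -0.48, standard error 0.23, unadjusted p = 0.077, adjusted p = 0.999 by the edgeR quasi-likelihood test). Il17ra, the common chain for IL-17 cytokines, came next at -0.13 (standard error 0.08), and Il2rg followed at 0.11 (standard error 0.08). Il17rc, the partner of Il17ra, was named outside the rule for the other genes and was too low for a test. It had 0 counts in all TCR alone samples and 11, 4 and 12 in TCR+DMGV. Its groups thus lay apart, but how many fragments such counts stand for is not known. The share of untested genes whose groups lie apart was not counted.

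Type 2 regulators ranged from abundant to barely detected. Of 22 genes, 20 were tested, and Bhlhe41 and Pparg, with means of 0.025 and 0.039 FPKM, did not pass the filter. In this list 0 were past the threshold in edgeR, DESeq2 or limma, 0 had an unadjusted p under 0.05 in edgeR, against 3.19% of all genes, and the median log2 fold change was -0.03. Irf4, a transcription factor induced by the T cell receptor, had 218 FPKM in TCR alone and 223 in TCR+DMGV (log2 fold change 0.05, standard error 0.08). Junb, an AP-1 subunit, had 87.6 and 97.3 FPKM (0.17, standard error 0.10) and the smallest p of the list, 0.121 before adjustment. Stat6, which carries the IL-4 signal, had 61.3 and 63.9 FPKM (0.08, standard error 0.07) and was the only gene of the 20 whose CPM did not overlap between the groups, against 8.86% of all genes. The next smallest p belonged to Nfil3, a basic leucine zipper factor (-0.14, standard error 0.09), and Nfatc2, an NFAT protein (-0.24, standard error 0.17).

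The type 17 regulators gave 1 gene of 21 tested with an unadjusted p under 0.05, against 3.19% of all genes, and 5 whose CPM did not overlap, against 8.86%. Rora, a nuclear receptor that acts with RORγt, had counts of 268, 219 and 189 in TCR alone and 172, 81 and 55 in TCR+DMGV, each TCR+DMGV sample below each TCR alone sample. Its log2 fold change was -1.25 (standard error 0.39, unadjusted p = 0.014, adjusted p = 0.999 by the edgeR quasi-likelihood test). Ahr, the aryl hydrocarbon receptor that IL-22 production depends on, had 252, 278 and 314 counts against 273, 218 and 135 and did not overlap in CPM (log2 fold change -0.53, standard error 0.23, unadjusted p = 0.053). Sgk1, a salt-sensing kinase, had -0.30 (standard error 0.16), also without overlap in CPM. Tgfbr2 and Il12rb1, named because their CPM did not overlap and not by the rule for the other genes, had 0.13 and 0.11 (standard errors 0.08 and 0.07). The most abundant of the list were Irf4, Hif1a (83.7 and 71.8 FPKM, log2 fold change -0.21, standard error 0.24) and Batf (44.5 and 42.4 FPKM, -0.05, standard error 0.09). The list had a median of -0.04, with 9 positive and 12 negative values, and 0 genes past the threshold in edgeR, DESeq2 or limma.

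The leading cytokines outside the 2 groups were more abundant than any of the 10. Ifng, the signature cytokine of type 1 cells, had 406 FPKM in TCR alone and 436 in TCR+DMGV (log2 fold change 0.12, standard error 0.13), Lta had 55.0 and 58.9 (0.12, standard error 0.11), and Tgfb1 had 29.9 and 28.3 (-0.06, standard error 0.07). Of 13 tested, 0 were past the threshold in edgeR, DESeq2 or limma, and 1 had an unadjusted p under 0.05, against 3.19% of all genes. This was Tnf, with 1057, 1214 and 1204 counts against 1681, 1427 and 1581, all TCR+DMGV samples higher (log2 fold change 0.35, standard error 0.10, unadjusted p = 0.010, adjusted p = 0.999 by the edgeR quasi-likelihood test). Il16 (0.17, standard error 0.09) and Csf2 (0.26, standard error 0.16) had the next smallest p. Tnf and Il16 were the 2 of 13 whose CPM did not overlap, against 8.86% of all genes. The median of this list was 0.12, with 10 of 13 values positive.

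**Figure D4:**
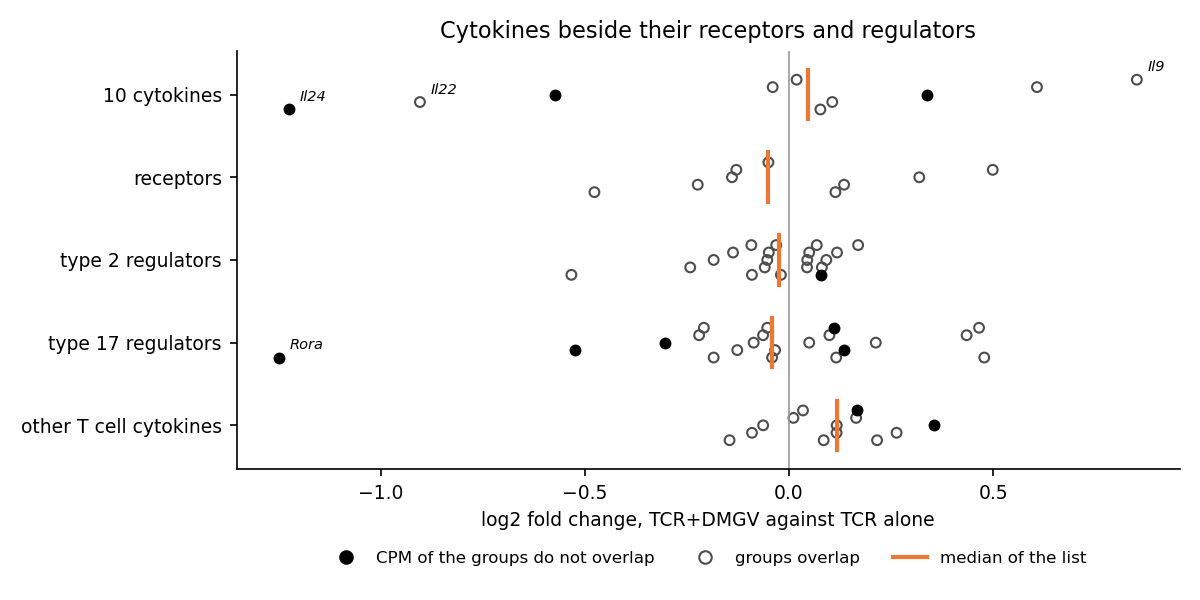
Each point is the log2 fold change of a tested gene of the 10 cytokines and of 4 lists, filled where the CPM of the groups do not overlap, with the median of each list in orange. The medians lie between -0.05 and 0.12, and Il24, Il22, Il9 and Rora, named in the plot, are the only genes beyond 0.7 in either direction.

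Marker lists of T cells and of other cells gave these sums, whose part in the values above was not tested. The T cell list summed to 3974, 4059 and 4321 CPM in TCR alone and 4553, 4316 and 4482 CPM in TCR+DMGV. Of the 43 marker genes tested, 4 (9.30%) had an unadjusted p under 0.05, against 3.19% of all genes, and the CPM of 9 (20.9%) did not overlap between the groups, against 8.86%. In the T cell list 12 of 13 log2 fold changes were positive, and 3 of the 13 genes did not overlap, all with higher CPM in TCR+DMGV. The 4 with a p under 0.05 were Trbc1 (log2 fold change 0.22), Klre1 of NK cells (1.37), Blk of the innate-like T cell list (-1.52) and Hba-a2 of red cells (-1.20). Counts in TCR alone and TCR+DMGV were low, 5, 23 and 18 against 41, 36 and 47 for Klre1. For Hba-a2 they were 49, 39 and 42 against 14, 15 and 30. The erythroid list summed to 4.69, 4.93 and 3.72 CPM in TCR alone and 1.75, 3.72 and 3.56 CPM in TCR+DMGV, with Hbb-bs as its most abundant gene (0.79 to 2.08 FPKM). NK cell markers summed to 6.27, 8.40 and 6.76 CPM against 9.14, 8.31 and 9.54 CPM, led by Gzma. B cell markers, led by Cd79b at 3.29 to 4.92 FPKM, summed to 10.6 to 13.8 CPM in TCR alone and 12.3 to 13.6 CPM in TCR+DMGV. Macrophage and monocyte markers summed to 8.67 to 11.6 CPM, led by Csf1r, with Cd14, C1qc and Ms4a7 at 0. Of the dendritic cell list, Clec9a, Siglech and Cd209a were at 0, and Bst2, which activated lymphocytes also express, made up most of its 66.9 to 93.4 CPM.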

How the data were processed

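Splenic T cells from 6 cultures were compared, 3 per group, grouped by their labels. Per the study's methods, the authors used SOAPnuke 1.5.2 to filter the reads, HISAT2 2.0.4 for mapping and StringTie 1.2.3 for expression. They deposited whole-number counts and FPKM for genes and transcripts. How counts were derived, the annotation and the use of strand were not given in the sources used here. The submitters' processing notes name the build mm9, but 99.7% of the gene identifiers are in GENCODE M21 (GRCm38), from which names and positions were taken; sequences are from RefSeq. Mitochondrial genes had 0 counts in all samples.

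Counts were tested with edgeR 4.0.16 (R 4.3.3; filterByExpr, TMM, glmQLFit, glmQLFTest, two-sided, Benjamini-Hochberg over all features, threshold 0.05, group as the only term). Standard errors were derived from the F statistics. Alternatives used DESeq2 1.42.0, limma 3.58.1 on log2(FPKM + 1) and log2(FPKM + 0.1), other scalings and filters, a GC offset (loess, span 0.3), a replicate block and left-out samples. In simulated counts for TCR+DMGV against TCR alone, 48.5% of 200 genes changed by 1 (log2) among 14439 were recovered at an adjusted p under 0.05. The changed genes were drawn from all levels, and the counts held no shared library or GC trend. The share recovered therefore does not give the power for the cytokines. To look for a library deposited again, pairs of samples were compared on counts divided by 4, an assumed weight: the median chi-square per gene was 1.69 to 7.41, against 0.455 from counting noise alone, and all samples were kept apart.

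The genes and lists were chosen with earlier results of these data known. Named from the lists were the 3 genes of smallest p and the 3 of highest FPKM in each, relatives with a count, the neighbours of members with at least 10 counts in every sample, and the 3 most correlated genes. Scart1 and Scart2 of the innate-like T cell list were not matched.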

Additional observations from a re-analysis of the deposited data

How the results depend on the processing

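The 10 cytokines gave 0 past the threshold in every alternative run (DESeq2, limma and left-out samples included), against 2 at an unadjusted p under 0.05. With that looser threshold there was also 1 type 17 regulator, 1 other T cell cytokine, 471 of all genes and 1235 transcripts. The 2 genes past the threshold over the whole table became 14 with DESeq2, 12 without both samples that stand apart, 1 with library size alone, 1 with all genes with a count, and 0 with limma on log2(FPKM + 1) or log2(FPKM + 0.1). Leaving out each sample in turn gave 0 to 5 genes and 0 to 1 transcripts. With the replicate number as a block, 0 genes passed, and 0 with the replicate block and the GC offset together. Same-numbered samples did not deviate together (correlations of deviations -0.15, 0.12 and -0.15), and not every sample correlated best with its own number.

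Il5, Il9, Il10, Il17f, Il22 and Il24 kept their sign in all their alternatives. Il4 was -0.0059 and -0.0093 with limma on log2(FPKM + 1) and log2(FPKM + 0.1), -0.0047 with counts divided by 4, an alternative chosen after seeing the data, and -0.045 without both samples that stand apart, where Il13 was -0.063 and Il17a -0.019. Il21 was 0.071 with the GC offset and 0.072 with the offset and the block. With each sample left out, Il4 ranged from -0.19 to 0.17, Il13 from -0.091 to 0.17, Il17a from -0.17 to 0.37 and Il21 from -0.25 to 0.16. The cause was not tested. Il9, Il17f and Il22 could not be fitted with at least 50 counts in 3 samples or with counts divided by 4, where they missed the filter. Their counts ran from 8 to 71, and the reason for their wide intervals was not tested. Intervals as wide as -2.32 to 0.52 for Il22 do not show that the groups are alike.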
